A study of Mus musculus with 9 samples.

Results

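Hepatic lipoprotein assembly was examined through 10 genes: the apolipoproteins Apoa1, Apoa2, Apoa4, Apoa5, Apob, Apoc2, Apoc3 and Apoe, the transfer protein Mttp and the lipase Lipc. They were chosen by gene symbol, and a gene entered where an array probe set carried that symbol and no other. This gave 8 probe sets for 8 of the 10 genes, among 28815 probe sets of which 21780 carried 1 gene symbol. The probe set of Apoc2 carries a second symbol and was left out, and Lipc was not analysed here. Only Apoa4 and Apoa5 differed between groups by more than the fold used for a call, and both were highest in the calorie-restricted livers.

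The liver packages triglyceride into very low density lipoprotein (VLDL) around a single molecule of apolipoprotein B per particle, and microsomal triglyceride transfer protein, the product of Mttp, loads lipid onto apolipoprotein B as it is made. Exchangeable apolipoproteins then decide where the lipid goes: apoA-I and apoA-II form high density lipoprotein (HDL), apoC-III slows the clearance of triglyceride-rich particles, apoA-V speeds their lipolysis, and apoE carries remnants to their receptors. apoA-IV is made mostly by the intestine and, in mice, also by the liver, where fasting and triglyceride load are known to raise its mRNA. DGAT1, the enzyme missing in the null mice, attaches the final fatty acid when triglyceride is made.

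Liver RNA from 9 female mice aged 15 to 16 months, all of C57BL/6J background, was hybridised to Affymetrix Mouse Gene 1.0 ST arrays with 3 mice per group. WTAL mice were wild-type and ate chow freely, WTCR mice were wild-type and were calorie restricted for a short term, and Dgat1-/-AL mice were Dgat1 null and ate chow freely. The labels name no restriction of the deletion to a cell type, and they give neither the hour of collection nor the time since the last meal. The study asked whether calorie restriction and loss of DGAT1 act through common pathways, so each group was set against WTAL and WTCR was set against Dgat1-/-AL. Values are log2 signals after robust multi-array averaging (RMA), on which a difference of 1 is a doubling. A difference was called where it exceeded 1.3-fold with a limma p below 0.05 before adjustment, all 9 arrays being fitted together, and a Benjamini-Hochberg adjusted p over all probe sets is given beside it.

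Dgat1 itself had a log2 signal of 6.13, 5.83 and 5.39 in Dgat1-/-AL, 8.89, 8.76 and 8.56 in WTCR, and 7.86, 5.67 and 8.04 in WTAL. The array labelled WTAL replicate 2 thus lay among the Dgat1-/-AL arrays and went against its label, so the fold changes of the measured genes and of the pathway genes called against WTAL, and the counts of marker and clock genes, are also given without it. On the second principal component, Dgat1-/-AL replicate 1 stood apart from the other 8 arrays. Hepatocyte markers were high in every library, with albumin (Alb) at a mean of 14.23 to 14.27 in the 3 groups. In bulk liver, fewer cells of a type and less RNA per cell cannot be told apart.

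Of the measured genes, 4 lie side by side on mouse chromosome 9 in the order Apoa1, Apoc3, Apoa4, Apoa5, with no other protein-coding gene between them. The 250 bases before the annotated start are printed for the pair that moved, Apoa4 and Apoa5, and for Apoa1 at the other end of the group, which did not. All are on the plus strand of GRCm38.p6 and from RefSeq, with Apoa4 at chr9:46240594-46240843, Apoa5 at chr9:46268358-46268607 and Apoa1 at chr9:46228380-46228629, and capitals mark matches to the motifs named after them.
Apoa4: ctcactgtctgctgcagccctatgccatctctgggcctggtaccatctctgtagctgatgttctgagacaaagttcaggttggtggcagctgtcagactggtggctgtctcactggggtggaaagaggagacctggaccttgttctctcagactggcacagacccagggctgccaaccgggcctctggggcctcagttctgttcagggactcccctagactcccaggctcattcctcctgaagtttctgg
Apoa5: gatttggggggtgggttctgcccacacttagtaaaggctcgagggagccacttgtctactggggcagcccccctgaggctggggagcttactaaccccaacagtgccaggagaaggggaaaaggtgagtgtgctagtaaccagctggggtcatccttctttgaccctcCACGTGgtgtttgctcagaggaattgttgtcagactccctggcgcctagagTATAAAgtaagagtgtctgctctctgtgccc
Apoa1: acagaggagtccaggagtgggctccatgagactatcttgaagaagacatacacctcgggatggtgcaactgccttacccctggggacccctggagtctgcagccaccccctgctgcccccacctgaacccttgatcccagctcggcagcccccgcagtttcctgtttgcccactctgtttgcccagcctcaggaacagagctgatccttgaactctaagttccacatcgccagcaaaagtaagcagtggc
The search covered 8 short motifs on both strands: the E-box CACGTG, the TATA box TATAAA, the nuclear receptor core AGGTCA, the C/EBP motif TTGCNNAA, the HNF4A motif CAAAGTCCA, the D-box TTATGTAA, the cyclic AMP response core TGACGT and the forkhead motif GTAAACA. The Apoa5 window held an E-box that starts 82 bases before the annotated start and a TATA box that starts 31 bases before it. Of 32851 promoters of the same length, 6.02% held the E-box and 12.4% the TATA box. In the windows of Apoa4 and Apoa1 none of the 8 motifs was found. Of the uncalled genes whose windows are not printed, Apob also held a TATA box, Apoa2, Apob and Mttp held other motifs, and Apoe held none. These letters describe the windows and say nothing of what binds there.

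Apoa4 gave the largest difference of the 8 genes. Its log2 signal was 11.26, 10.65 and 10.81 in WTAL, 12.31, 12.38 and 12.41 in WTCR, and 10.54, 10.84 and 11.04 in Dgat1-/-AL. All WTCR livers lay more than a log2 unit above every other liver, and the WTAL and Dgat1-/-AL livers overlapped. In WTCR the gene was 2.75-fold higher than in WTAL (a log2 difference of 1.46 with an SE of 0.17 in limma, 3 mice in each group, adjusted p = 0.0085) and 2.95-fold higher than in Dgat1-/-AL (1.56 ± 0.17, adjusted p = 0.0058). Without the array labelled WTAL replicate 2 the rise over WTAL was 1.33 (adjusted p = 0.022), and with each of the 9 arrays left out in turn it stayed between 1.33 and 1.63, or 1.43 and 1.68 over Dgat1-/-AL. Between Dgat1-/-AL and WTAL the difference was -0.10 ± 0.17, with a 95% interval of -0.48 to 0.28 that reaches past a 1.3-fold fall. The WTCR mice were also the closest to each other, with an SD of 0.05 against 0.31 in WTAL and 0.25 in Dgat1-/-AL.

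Apoa5, the neighbour that promotes lipolysis of circulating triglyceride, was ordered WTCR, then WTAL, then Dgat1-/-AL. The signals were 12.10, 12.07 and 12.07 in WTAL, 12.52, 12.70 and 12.19 in WTCR, and 11.45, 11.87 and 11.92 in Dgat1-/-AL. No array of one group overlapped another group, an order that 0.416% of all probe sets also showed. The direct difference between WTCR and Dgat1-/-AL was 1.65-fold (0.72 ± 0.15, adjusted p = 0.044 from limma), and it stayed called with each array left out, at 0.57 to 0.86, the lowest without Dgat1-/-AL replicate 1, although the adjusted p then ran from 0.053 to 0.14.

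The steps above and below WTAL were less firm. Apoa5 was called higher in WTCR than in WTAL at 1.31-fold (0.39 ± 0.15, unadjusted p = 0.031, adjusted p = 0.26 from limma), just over the fold of 1.3. The call ended without WTAL replicate 1 (0.40), 2 (0.39) or 3 (0.39) and without WTCR replicate 1 (0.37) or 2 (0.28). It also ended with array weights (0.34). Against WTAL, Dgat1-/-AL gave -0.33 ± 0.15 (unadjusted p = 0.060, adjusted p = 0.97 from limma), with an interval of -0.68 to 0.02. Dgat1-/-AL replicate 1 held the lowest of these signals, and without it the difference was -0.18. Without Dgat1-/-AL replicate 3 it became a call at -0.42, and without the array labelled WTAL replicate 2 it was -0.34.

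**Figure D1:**
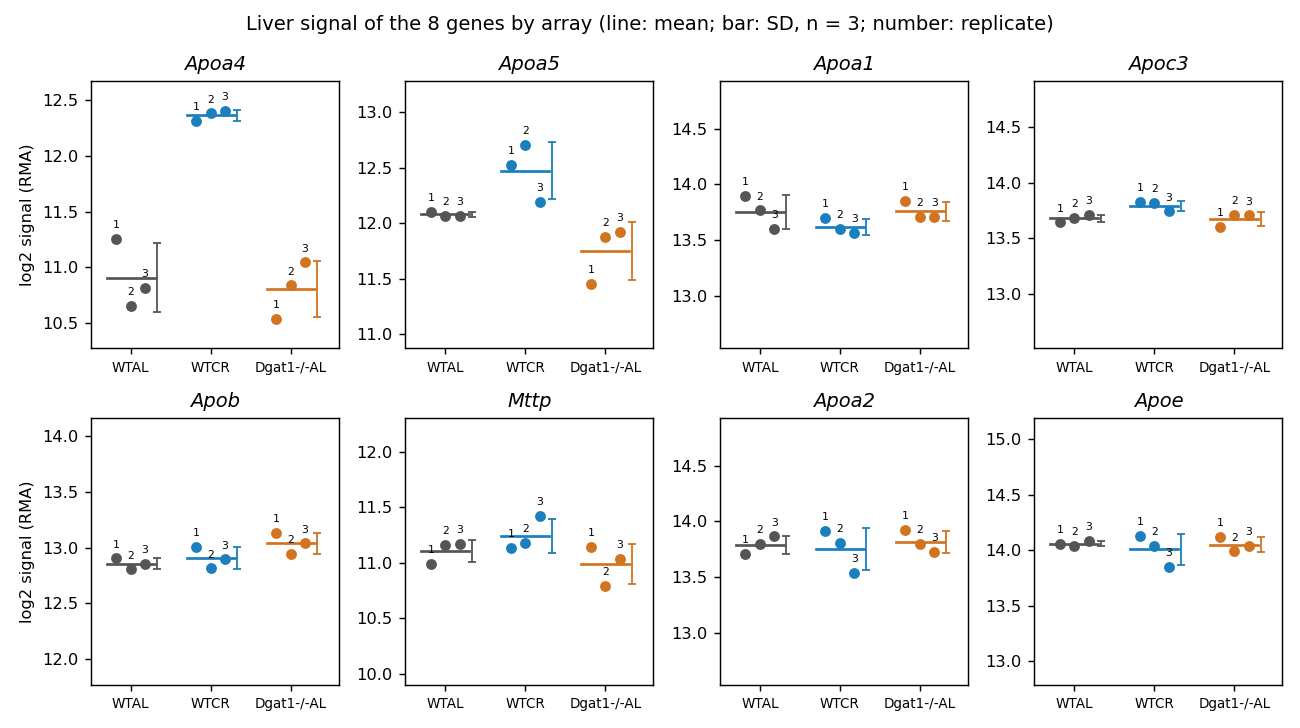
Log2 signal after RMA (y axis, the same span of 2.4 log2 units in each panel) of the 8 measured genes in each liver array, by group (x axis); numbers are replicates, lines group means and bars the SD of 3 mice. Apoa4 in WTCR (12.31 to 12.41) lies above every other array, and Apoa5 falls from WTCR over WTAL to Dgat1-/-AL with no overlap.

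The other 2 genes of the chromosome 9 group stayed within the fold. Apoc3, whose product inhibits lipoprotein lipase and remnant uptake, read 13.64, 13.69 and 13.71 in WTAL, 13.82, 13.82 and 13.74 in WTCR, and 13.60, 13.71 and 13.71 in Dgat1-/-AL. WTCR lay above both other groups with no overlap, by 0.12 ± 0.06 over WTAL (unadjusted p = 0.088, adjusted p = 0.44 from limma) and by 0.12 ± 0.06 over Dgat1-/-AL. Apoa1, the main protein of HDL, read 13.90, 13.77 and 13.60 in WTAL, 13.70, 13.60 and 13.56 in WTCR, and 13.85, 13.71 and 13.71 in Dgat1-/-AL. Here WTCR gave -0.13 ± 0.09 against WTAL, whose arrays it overlapped, and -0.14 ± 0.09 against Dgat1-/-AL, below which all WTCR arrays lay. Side by side, the log2 fold changes of the 4 adjacent genes in WTCR over WTAL were -0.13 for Apoa1, 0.12 for Apoc3, 1.46 for Apoa4 and 0.39 for Apoa5.

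VLDL assembly was represented by Apob and Mttp, and neither was called in any comparison. Apob, the structural protein of the particle, read 12.90, 12.80 and 12.86 in WTAL, 13.01, 12.81 and 12.90 in WTCR, and 13.13, 12.95 and 13.04 in Dgat1-/-AL. All Dgat1-/-AL livers lay above all WTAL livers, but by 1.14-fold (0.18 ± 0.08, unadjusted p = 0.039, adjusted p = 0.97 from limma), and by 0.16 without the array labelled WTAL replicate 2. The interval of 0.01 to 0.36 lies inside the fold of 1.3. Mttp read 10.99, 11.16 and 11.17 in WTAL, 11.13, 11.18 and 11.42 in WTCR, and 11.15, 10.79 and 11.04 in Dgat1-/-AL, so that the groups overlapped in every pairing. Its widest difference was WTCR over Dgat1-/-AL, at 0.25 ± 0.11 (unadjusted p = 0.055, adjusted p = 0.33 from limma), which became 0.07 when the quantile normalization was repeated.

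Apoa2, the second HDL protein, and Apoe, the ligand for remnant receptors, were the flattest. Apoa2 read 13.70, 13.80 and 13.86 in WTAL, 13.91, 13.80 and 13.54 in WTCR, and 13.92, 13.80 and 13.73 in Dgat1-/-AL. Apoe read 14.06, 14.04 and 14.08 in WTAL, 14.13, 14.04 and 13.85 in WTCR, and 14.12, 13.99 and 14.04 in Dgat1-/-AL. The groups overlapped throughout, and the differences were between -0.06 and 0.03 for Apoa2 and between -0.05 and -0.01 for Apoe. WTCR replicate 3 was the lowest array for both, and without it WTCR over WTAL became 0.07 for Apoa2 and 0.03 for Apoe. In the main fit, all 95% intervals of Apoa1, Apoa2, Apoc3, Apoe and Apob lay within a fold of 1.3 in the 3 comparisons. Intervals of other fits are not given, and Apob became -0.28 ± 0.08 in WTCR over Dgat1-/-AL after repeated quantile normalization. Without the array labelled WTAL replicate 2, WTCR over WTAL was -0.13 for Apoa1, -0.03 for Apoa2, 0.12 for Apoc3, -0.06 for Apoe, 0.02 for Apob and 0.16 for Mttp, and none was called. In Dgat1-/-AL over WTAL it was 0.01 for Apoa1, 0.03 for Apoa2, -0.002 for Apoc3, -0.02 for Apoe, -0.09 for Mttp and -0.23 for Apoa4. Apoe, the brightest of the 8, read close to the array maxima of 14.73 to 15.16.

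**Figure D2:**
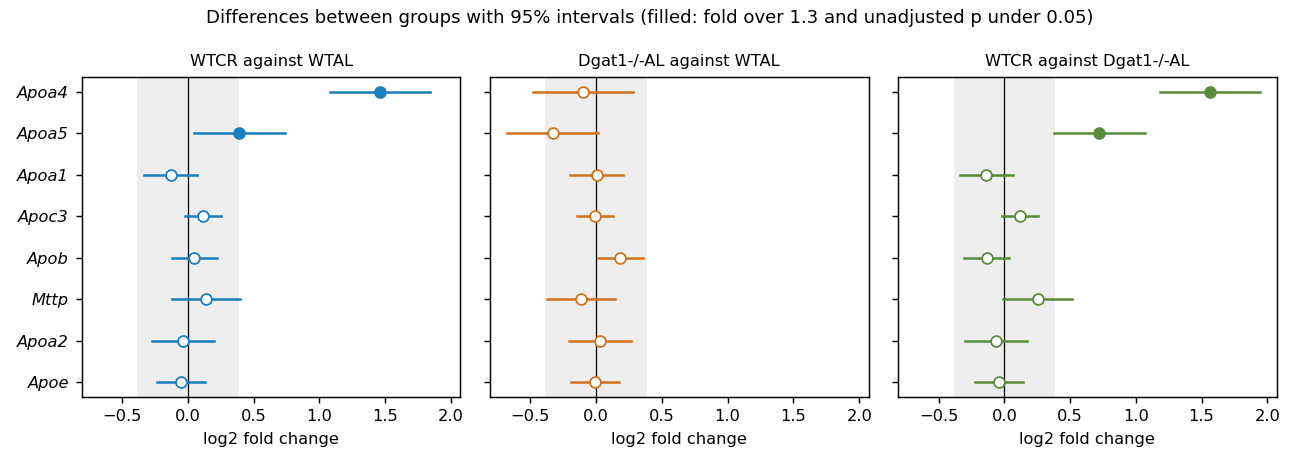
Log2 fold change (x axis) of the 8 genes (y axis) in the 3 comparisons, with 95% intervals from limma over 9 arrays; filled points are called and the grey band is a fold of 1.3 either way. Filled points appear only for Apoa4 and Apoa5, and only where WTCR is compared.

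Counted over the 8 genes, 2 were called in WTCR against WTAL, both higher, where 8.06% of all probe sets were called. In the ranges of signal that hold the 8 genes, 20.7% to 29.1% of probe sets were called. At an adjusted p under 0.05, 1 of the 8 passed, Apoa4, against 3.03% of all. In 3 genes the groups did not overlap, against 19.6% of all. WTCR against Dgat1-/-AL called the same 2 genes higher, against 8.59% of all probe sets, and both passed the adjusted p, against 3.06%. With replicate number as a block the adjusted p from limma was 0.026 for Apoa4 and 0.080 for Apoa5, and with only those 6 arrays under the block 0.034 and 0.13. For Apoa5 it was also over 0.05 with only the 2 groups in the fit (0.15) and after repeated quantile normalization (0.12). With a variance trend it was 0.059 and with array weights 0.058. It stayed under 0.05 with dim probe sets left out (0.038) and with median centring (0.040). The groups did not overlap there in 4 genes, against 16.1% of all. For Dgat1-/-AL against WTAL, limma called 0 of the 8, with 1 at an unadjusted p under 0.05 (Apob), where 1.23% of all probe sets were called, 0% passed the adjusted p and 1316 had an unadjusted p under 0.05. The groups did not overlap in 2 genes, Apoa5 and Apob, against 7.02% of all. The median log2 fold change of the 8 was 0.08, -0.01 and 0.04 in WTCR against WTAL, Dgat1-/-AL against WTAL and WTCR against Dgat1-/-AL, where all probe sets had medians of 0.002, -0.002 and 0.005. WTAL enters both of the first 2 comparisons, so these are not independent.

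**Figure D3:**
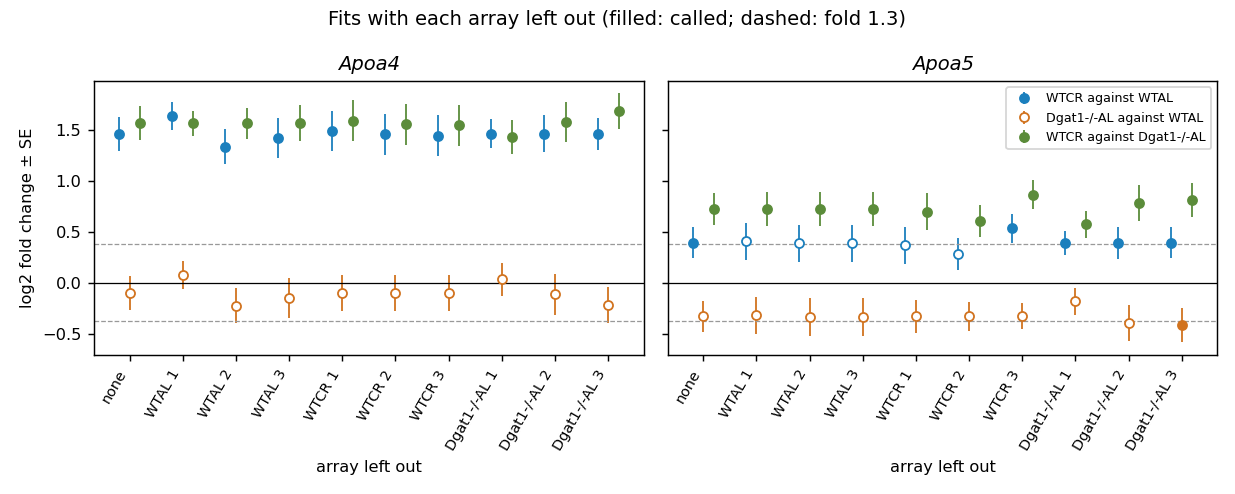
Log2 fold change ± SE (y axis) of Apoa4 and Apoa5 in the 3 comparisons with no array or 1 of the 9 arrays left out (x axis); filled points are called and dashed lines mark a fold of 1.3. Apoa4 stays called at 1.33 or more wherever WTCR is compared, and Apoa5 in WTCR over WTAL loses its call in 5 of the 9 fits. Of the fits without a WTAL or WTCR array, only that without WTCR replicate 3 keeps this call.

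The genes measured here are among the brightest on the array, and bright probe sets as a whole were shifted in WTCR. Between mean log2 signals of 12 and 13, where Apoa5 and Apob lie, 248 probe sets had a median log2 fold change of 0.22 in WTCR over WTAL and 22.2% were called. Between 11 and 12, where Apoa4 and Mttp lie, the median was 0.19 with 20.7% called. Between 13 and 15, the range of Apoa1, Apoa2, Apoc3 and Apoe, it was 0.06 with 29.1% called. Apoa4 (1.46) lay far above the median of its range, Apoa5 (0.39) exceeded it by about its SE and Apoc3 (0.12) by no more than its SE, and Mttp (0.14), Apob (0.05), Apoa1, Apoa2 and Apoe lay below it. Repeating the quantile normalization on the deposited values brought the 3 medians to 0.03, 0.05 and 0.00, and without the array labelled WTAL replicate 2 they were 0.22, 0.18 and 0.09 as deposited. After the repeated quantile normalization Apoa4 gave 1.33 over WTAL (adjusted p = 0.0078 from limma), Apoa5 0.22 and no call, Mttp -0.002 and Apob -0.15. In WTCR over Dgat1-/-AL the same step left Apoa4 at 1.42 and Apoa5 at 0.57, both called, and moved Apob to -0.28 (unadjusted p = 0.0080, adjusted p = 0.12 from limma, under the fold) and Mttp to 0.07.

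**Figure D4:**
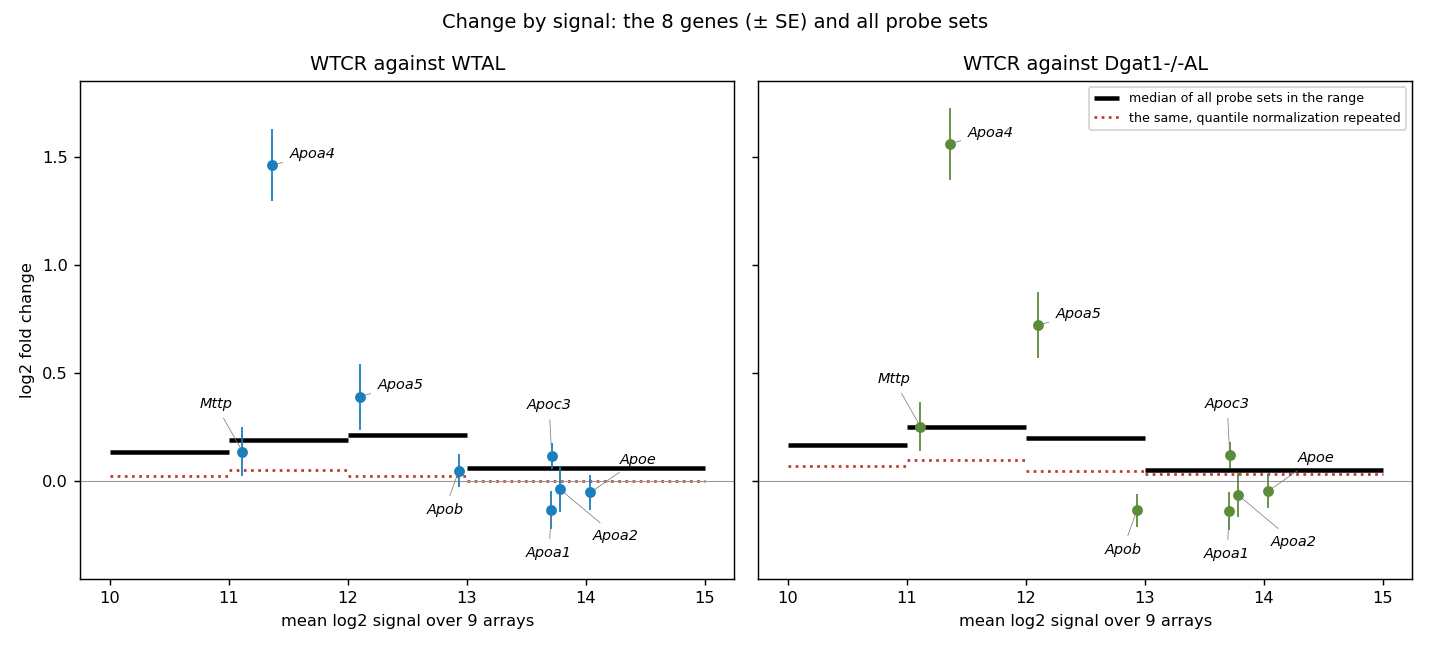
Log2 fold change (y axis) against the mean log2 signal over the 9 arrays (x axis) for the 8 genes (points, ± SE), with the median of all probe sets in each range of signal as deposited (black) and after quantile normalization was repeated (dotted). Apoa4 lies far above the medians in both panels, and Apoa5 lies nearer to them in WTCR over WTAL than in WTCR over Dgat1-/-AL.

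Genes that act with these proteins were taken from 5 lists of 68 genes, of which 60 were measured. The lists were chosen with earlier results of these data known. In WTCR against WTAL, 6 were called higher and 7 lower, or 21.7% where 8.06% of all probe sets were called, and 6 of the 60 passed an adjusted p under 0.05 with no fold required, 5 of them among the 13 called and the other Mylip. WTCR against Dgat1-/-AL had 8 higher and 7 lower of the 60, where 8.59% of all probe sets were called. Dgat1-/-AL against WTAL gave 1 call, lower, or 1.67% where 1.23% of all probe sets were called, and 0 without the array labelled WTAL replicate 2. The median of the 60 was 0.10, 0.00 and 0.03 in these comparisons in that order. Among 8 other apolipoproteins, 0 were called higher and 2 lower in WTCR against WTAL. Apof, an inhibitor of cholesteryl ester transfer, read 12.14, 12.02 and 12.16 in WTAL, 11.63, 11.46 and 11.59 in WTCR, and 12.07, 11.99 and 11.98 in Dgat1-/-AL. WTCR lay below both other groups, by -0.55 ± 0.07 against WTAL (adjusted p = 0.012 from limma) and -0.46 ± 0.07 against Dgat1-/-AL. Apon, its neighbour on chromosome 10, was lower in WTCR by -0.92 ± 0.20 (adjusted p = 0.046) and by -1.11 ± 0.20 against Dgat1-/-AL. Both kept these calls with each array left out.

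Of 15 measured genes of VLDL assembly, apoB mRNA editing and secretory transport, 2 were lower in WTCR than in WTAL and 0 higher, or 13.3% where 8.06% of all probe sets were called. They were the catalytic subunit of apoB editing, Apobec1, at -0.73 ± 0.21 (adjusted p = 0.12 from limma), and its RNA-binding partner A1cf, at -0.52 ± 0.11 (adjusted p = 0.038). Against Dgat1-/-AL, Apobec1 was lower by -0.85 ± 0.21, and A1cf gave -0.24 ± 0.11, under the fold. Dgat1-/-AL lay between the other groups for A1cf, at -0.28 ± 0.11 against WTAL (unadjusted p = 0.028, adjusted p = 0.97 from limma), also under the fold. For Apobec1 it gave 0.11 ± 0.21 against WTAL. Editing shortens apoB mRNA's reading frame, and these arrays do not measure it. With Apob itself at 0.05 ± 0.08 in WTCR over WTAL, the mRNA of the substrate was not called where those of the editing factors were.

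Among 10 measured lipases, their regulators and HDL remodelling genes, Angptl4, a secreted inhibitor of lipoprotein lipase, read 8.06, 7.89 and 8.38 in WTAL, 8.89, 9.04 and 8.58 in WTCR, and 8.39, 8.09 and 7.92 in Dgat1-/-AL. It was higher in WTCR by 0.73 ± 0.17 over WTAL (adjusted p = 0.063 from limma) and by 0.71 ± 0.17 over Dgat1-/-AL. Pltp, which transfers phospholipid to HDL, was lower in WTCR than in WTAL by -0.96 ± 0.38 (adjusted p = 0.28), and this call was lost on leaving out WTAL replicate 2 (-0.98), WTAL replicate 3 (-0.64), WTCR replicate 2 (-0.83) or WTCR replicate 3 (-0.77), and in the fit with replicate number as a block (unadjusted p = 0.053). Dgat1-/-AL gave -0.76 ± 0.38 against WTAL for Pltp (unadjusted p = 0.080 from limma), and WTCR gave -0.20 ± 0.38 against Dgat1-/-AL. Angptl8, a feeding-induced partner in lipase inhibition, was the gene called in Dgat1-/-AL against WTAL, at -0.75 ± 0.28 (unadjusted p = 0.027, adjusted p = 0.97). Its groups overlapped, at 7.60, 8.91 and 8.69 in WTAL and 7.60, 7.63 and 7.71 in Dgat1-/-AL, and the call ended without WTAL replicate 2 (-0.50) or 3 (-0.61) or any Dgat1-/-AL array (-0.78 to -0.73) and with only these 2 groups in the fit, while without WTAL replicate 1 it was -1.15 (adjusted p = 0.055). Gpihbp1, which anchors lipoprotein lipase to capillaries, was called in WTCR over Dgat1-/-AL at 0.44 ± 0.13, but not without Dgat1-/-AL replicate 3 (0.38).

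**Figure D5:**
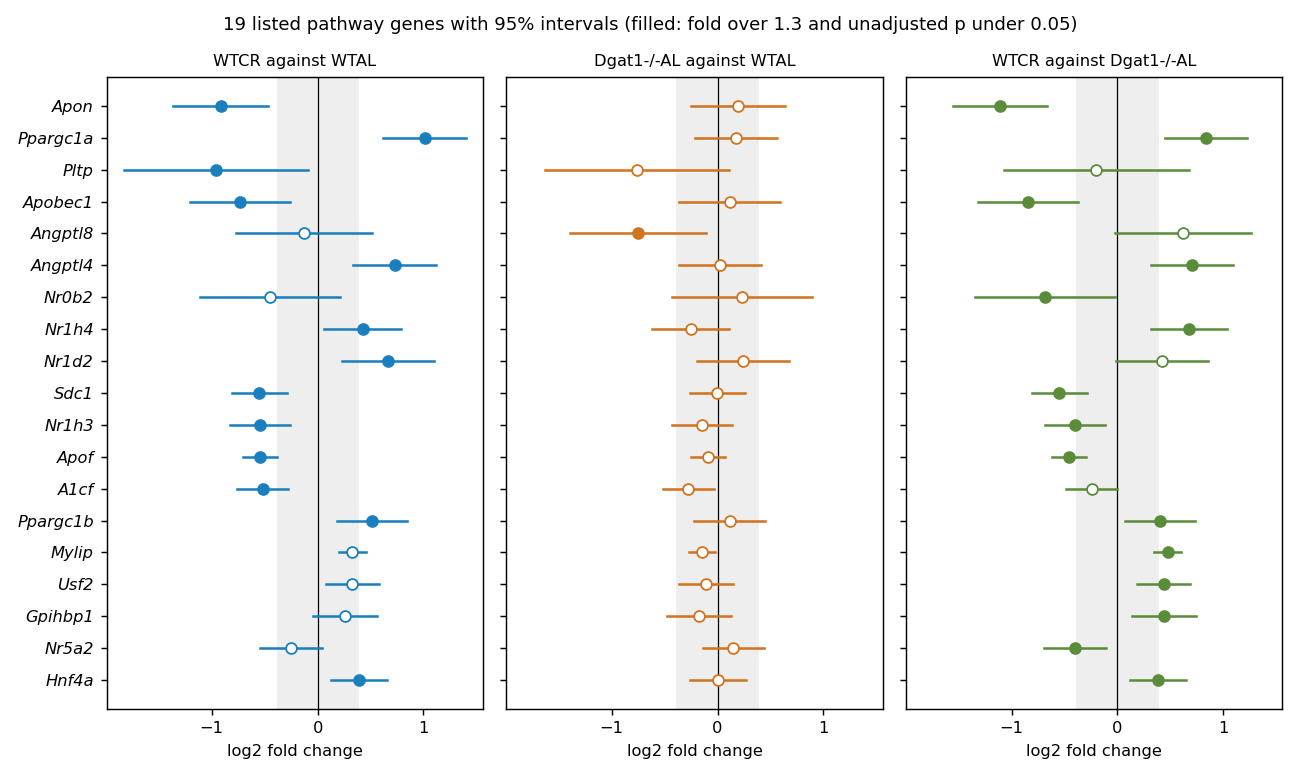
Log2 fold change (x axis) with 95% intervals of the 19 listed pathway genes (y axis) that were called in at least 1 of the 3 comparisons; filled points are called and the grey band is a fold of 1.3 either way. Calls lie in the panels with WTCR, apart from Angptl8 in Dgat1-/-AL against WTAL.

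Of 6 measured receptor genes, Sdc1, a heparan sulfate proteoglycan that binds remnants, was lower in WTCR, by -0.55 ± 0.11 against WTAL (adjusted p = 0.041 from limma) and by -0.55 ± 0.11 against Dgat1-/-AL. Mylip, a ubiquitin ligase that degrades lipoprotein receptors, was called in WTCR over Dgat1-/-AL at 0.47 ± 0.06 (adjusted p = 0.0080). Over WTAL it gave 0.33 ± 0.06 (adjusted p = 0.022), under the fold.

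Regulators known to act on apolipoprotein or Mttp promoters gave 5 higher and 1 lower of 21 in WTCR against WTAL. This was 28.6%, where 8.06% of all probe sets were called. Against Dgat1-/-AL they gave 5 higher and 3 lower, or 38.1% where 8.59% of all probe sets were called. The nuclear receptor coactivator Ppargc1a was higher by 1.01 ± 0.17 (adjusted p = 0.022 from limma) and 0.84 ± 0.17, its relative Ppargc1b by 0.51 ± 0.15 and 0.40 ± 0.15, and the bile acid receptor Nr1h4 by 0.42 ± 0.16 and 0.68 ± 0.16. Hnf4a, a main activator of apolipoprotein genes, gave 0.40 ± 0.12 and 0.39 ± 0.12, calls at the edge of the fold that ended after repeated quantile normalization (0.24 and 0.21). The circadian repressor Nr1d2 was higher by 0.66 ± 0.19 over WTAL. The oxysterol receptor Nr1h3, which drives Apoe and Apoc genes in other settings, was lower by -0.55 ± 0.12 and -0.40 ± 0.12. Called against Dgat1-/-AL and not against WTAL were the corepressor Nr0b2 (-0.68 ± 0.29), the nuclear receptor Nr5a2 (-0.40 ± 0.13), which activates bile acid and HDL genes, and the E-box-binding factor Usf2 (0.44 ± 0.11). The share of all probe sets called in WTCR against WTAL differed with signal. It was 3.18% between mean log2 signals of 4 and 6 and 17.9% between 8 and 10. Neither the regulators nor the other lists were compared with probe sets of matched signal, so an excess beyond signal was not tested.

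Against WTAL, the calls of Apof, Apon, Apobec1, A1cf, Angptl4, Sdc1, Ppargc1a, Ppargc1b, Nr1d2 and Nr1h3 in WTCR held with each array left out. Without the array labelled WTAL replicate 2 the log2 fold changes were -0.59 for Apof, -0.97 for Apon, -0.91 for Apobec1, -0.56 for A1cf, 0.62 for Angptl4, -0.58 for Sdc1, 1.05 for Ppargc1a, 0.53 for Ppargc1b, 0.72 for Nr1d2, -0.53 for Nr1h3 and 0.50 for Hnf4a. Other calls were lost when single arrays were left out, in some cases with almost no change in the fold change. Over WTAL, Nr1h4 lost its call when WTAL replicate 2 (0.39), WTAL replicate 3 (0.36), WTCR replicate 1 (0.40) or WTCR replicate 3 (0.37) was left out, and Hnf4a without WTAL replicate 1 (0.29). Against Dgat1-/-AL, Ppargc1b lost its call when WTCR replicate 1 (0.27), WTCR replicate 2 (0.33), Dgat1-/-AL replicate 2 (0.37) or Dgat1-/-AL replicate 3 (0.40) was left out, and Nr1h3 without WTCR replicate 1 (-0.34), WTCR replicate 3 (-0.33) or Dgat1-/-AL replicate 3 (-0.33). Nr0b2 lost its call without WTAL replicate 1 (-0.68), WTCR replicate 2 (-0.39), Dgat1-/-AL replicate 1 (-0.51) or Dgat1-/-AL replicate 3 (-0.74), and Nr5a2 without WTCR replicate 2 (-0.27), Dgat1-/-AL replicate 1 (-0.36) or Dgat1-/-AL replicate 3 (-0.36). Nr1h4 also lost its call over WTAL after repeated quantile normalization (0.36). Against Dgat1-/-AL, Nr0b2 and Ppargc1b lost theirs with only the 2 groups in the fit (-0.68 and 0.40) and with array weights (-0.54 and 0.33). Usf2 lost it without Dgat1-/-AL replicate 2 (0.36), and Hnf4a without Dgat1-/-AL replicate 2 (0.32) or 3 (0.36).

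Other gene groups moved beside Apoa4 and Apoa5 in WTCR. For the counts that follow, 8.06% of all probe sets were called in WTCR against WTAL and 1.23% in Dgat1-/-AL against WTAL. Of 14 clock genes and their output factors, 9 were higher and 1 lower in WTCR against WTAL and 0 were called in Dgat1-/-AL, with Dbp at 2.24 ± 0.33 and Nfil3 at -2.00 ± 0.30. Without the array labelled WTAL replicate 2 it was 10 higher and 2 lower, with Dbp at 2.54 and Nfil3 at -2.29, and 0 in Dgat1-/-AL. The part of time of day or time since feeding in the Apoa4 and Apoa5 differences was not tested. Among intestinal epithelium markers, Sis was at 3.11 to 3.12, Alpi at 4.72 to 4.88 and Lct at 5.46 to 5.48 as group means, and the summed level of the 5 markers was 8.57 to 9.90 in WTAL, 8.16 to 8.51 in WTCR and 8.12 to 8.91 in Dgat1-/-AL. The brightest of them was Fabp2, at -1.22 ± 0.44 in WTCR against WTAL, while Sis, Lct, Alpi and Vil1 gave 0.004 to 0.06 and the median of the 5 was 0.02. Of 12 macrophage markers, WTCR had 3 below and 1 above WTAL and Dgat1-/-AL had 4 below it, with summed levels of 12.07 to 12.64 in WTAL, 11.74 to 12.41 in WTCR and 11.81 to 12.26 in Dgat1-/-AL. Lymphocyte markers were lower in WTCR than in WTAL for 5 of 7, sinusoidal endothelial markers for 1 of 6 and stellate cell markers for 3 of 6, with 0 higher in each, and bile duct, fat cell and exocrine pancreas markers for 0 of 4, 0 of 3 and 0 of 4. The summed endothelial level was 11.82 to 12.01 in WTAL, 10.95 to 11.41 in WTCR and 11.46 to 11.75 in Dgat1-/-AL, and the lymphocyte sum 8.383 to 9.002, 7.90 to 7.95 and 8.04 to 8.26, so that both other groups lay below every WTAL liver in each. In Dgat1-/-AL against WTAL, 1 endothelial marker was called higher and 2 lower, and 1 lymphocyte marker lower. Without the array labelled WTAL replicate 2 these counts did not move, while macrophage markers had 2 below and 1 above WTAL in WTCR and 2 below it in Dgat1-/-AL, and Fabp2 gave -1.63 in WTCR and -1.26 in Dgat1-/-AL, both called. The part of these cells in the differences of the 8 genes was not tested. The summed level of 6 hepatocyte markers was 16.14 to 16.17, 16.07 to 16.25 and 16.12 to 16.19 in the 3 groups, while 1 of them, the fatty acid binding protein Fabp1, was lower in WTCR by -1.11 ± 0.15, and also -1.11 without the array labelled WTAL replicate 2.

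The patterns nearest to those of Apoa4 and Apoa5 were found over the 9 arrays by the root mean square distance of differences from the WTAL mean, among all other probe sets with 1 symbol. For Apoa4 they were Glrx, Ptbp2 and Map2k6, at distances of 0.22, 0.22 and 0.23 log2 units. For Apoa5 they were Gchfr, Asl and Blvrb, at 0.12, 0.13 and 0.16, with WTCR over WTAL at 0.37, 0.41 and 0.43. None is a lipoprotein gene in the lists used here.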

How the data were processed

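Liver RNA of 9 female mice was hybridised to 1 Affymetrix Mouse Gene 1.0 ST array each. The deposited values are log2 signals; per the labels, the authors obtained them by RMA, that is by background correction, quantile normalization between arrays and summary of each probe set. Its version and the probe annotation used are not given in the sources used here, and precision is limited by 3 arrays per group. All 28815 probe sets were kept. Genes were named from the platform annotation: 21780 probe sets carried 1 symbol, 1605 several and 5430 none. For Ppargc1a and Tmem41b, which have 2 probe sets each, the brighter was used, and the other is not given here.

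limma 3.58.1 (R 4.3.3) fitted 1 mean per group over the 9 arrays (lmFit, eBayes; 6 residual and 2.651 prior degrees of freedom). The call was a fold over 1.3 with an unadjusted p under 0.05, the study's rule; p was also adjusted by Benjamini-Hochberg over all probe sets. The script was tested on simulated data. Fold changes are the first group named minus the second. Named genes were all measured members, every gene of the 5 pathway lists called in any comparison, and the 3 nearest patterns of each called member. Members and lists were chosen with earlier results of these data known. Alternatives were an adjusted p, each array left out, 2-group fits, a replicate block, dim probe sets left out, median centring, repeated quantile normalization, a variance trend and array weights. Counts of marker and clock genes and medians by signal without WTAL replicate 2 were added after the data were seen.

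Replicate numbers come from the titles. Deviations from the group means of same-numbered arrays correlated at 0.48, 0.25 and 0.21 between WTCR and Dgat1-/-AL, so the numbers were taken to pair those samples. The pairing entered only the replicate block, and the SE and p given elsewhere come from the unpaired fit. The 0.48 is that of replicate 1, where the Dgat1-/-AL array stood apart. Against WTAL the correlations were -0.23, 0.05 and -0.07 for WTCR and -0.32, -0.09 and -0.23 for Dgat1-/-AL, and there the numbers were not taken to pair samples. The labels do not say what a number marks. Promoter sequences and gene order came from RefSeq (GRCm38.p6); the files name no genome build. Sums of marker signals were taken on the linear scale and given as log2.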

Additional observations from a re-analysis of the deposited data

How the results depend on the processing

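In both comparisons with WTCR the call of Apoa4 held under all alternatives run, as did that of Apoa5 in WTCR against Dgat1-/-AL. The adjusted p of Apoa5 there, from limma, was 0.044 in the main fit and ran from 0.038 to 0.15 under the alternatives that changed the fit. In WTCR against WTAL, 2 of the 8 genes were called, and 1 with an adjusted p, repeated quantile normalization or array weights, and 1 to 2 with each array left out. In Dgat1-/-AL against WTAL it was 0, and 0 to 1 with each array left out, the 1 being Apoa5 without Dgat1-/-AL replicate 3 (-0.42). Counts of pathway genes at an adjusted p were 6 for WTCR against WTAL (13 at the rule), 0 for Dgat1-/-AL against WTAL (1 at the rule) and 5 for WTCR against Dgat1-/-AL (15 at the rule); this alternative requires no fold, so the 6 hold 5 of the 13 and Mylip. For Dgat1-/-AL they were 0 with only the 2 groups in the fit, 3 with array weights and 0 to 3 with each array left out. All probe sets called at an adjusted p were 872 for WTCR, 0 for Dgat1-/-AL and 883 for the direct comparison, against 2322, 353 and 2475 at the rule, and the 353 ran from 331 to 663 with each array left out, the highest without Dgat1-/-AL replicate 2 and 551 without replicate 1.

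Of 416 member values under alternatives, 23 changed sign, none of a called difference. Many of the 416 could not change sign, because the log2 fold change stayed that of the main fit by construction. This holds for the adjusted p, fits of only the compared groups, the replicate block, dim probe sets left out and the variance trend. It also holds where the array left out was of the group not compared. In WTCR against WTAL after repeated quantile normalization the values that changed sign were Apob (-0.15) and Mttp (-0.0020). In Dgat1-/-AL against WTAL they were Apoa1 after quantile normalization (-0.0022), and with array weights Apoa1 (-0.013), Apoa2 (-0.019), Apoa4 (0.012) and Apoc3 (0.013). The rest were single arrays left out. In WTCR against WTAL the values ran from -0.117 to 0.070 for Apoa2, from -0.00067 to 0.096 for Apob and from -0.111 to 0.026 for Apoe. In Dgat1-/-AL against WTAL they ran from -0.074 to 0.075 for Apoa1, from -0.027 to 0.071 for Apoa2, from -0.227 to 0.074 for Apoa4, from -0.024 to 0.029 for Apoc3 and from -0.043 to 0.024 for Apoe. In WTCR against Dgat1-/-AL they ran from -0.143 to 0.043 for Apoa2 and from -0.104 to 0.034 for Apoe. Among named pathway genes, 60 of 508 values lost a call and 0 changed sign, where the same alternatives could not change a sign.

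With the replicate block, the number of the 8 genes called was 2, 0 and 2 in the 3 comparisons, pathway genes 12, 1 and 17, and all probe sets 2323, 359 and 2480. With only those 6 arrays, added after the data were seen, the direct comparison gave 2 members, 19 pathway genes and 2705 probe sets. The block took the adjusted p of Apoa5 in WTCR against Dgat1-/-AL to 0.080, and to 0.13 with only those 6 arrays, and ended the call of Pltp in WTCR against WTAL and no other call of a named gene.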
